A study of Mus musculus with 27 samples.

Results

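Hepatic stellate cells (HSCs) of mice that had received 4 weeks of carbon tetrachloride (CCl4) and had then been left for 72 h were compared with HSCs of healthy mice. The comparison rests on 8 of the 27 RNA-seq libraries of the series, 4 labelled chronic 72 h and 4 labelled healthy, and on all 53379 genes of the count table. All mice were male Balb/c. Chronic mice had 8 intraperitoneal injections of CCl4 in mineral oil, at 0.5 µL per g of body weight and given semi-weekly over 4 weeks, beginning at an age of 8 to 10 weeks. Their HSCs were taken 72 h after the last injection. Chronic mice were thus about 4 weeks past their starting age at collection. Healthy mice were 10 to 12 weeks old and received no injection. The oil, the handling, the CCl4 and the age at collection therefore cannot be told apart in this comparison. In both groups the liver was perfused, HSCs were isolated by sorting for ultraviolet-positive cells, whose stored retinoid fluoresces, and RNA was extracted without culture, each repeat being an individual experiment according to the methods of the study. Another group with the same 8 injections, collected 24 h after the last of them (chronic 24 h, n = 4), was used to place each level at 72 h relative to the end of the injections.

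Most of the vitamin A of the body is held in lipid droplets of HSCs, the pericytes of the liver sinusoid. Damage to the liver turns on collagen genes, lysyl oxidases, protease inhibitors and smooth muscle actin in these cells, which then act much like the fibroblasts of a healing wound. CCl4 is turned into a toxic radical by hepatocytes around the central vein, and when the injections stop the matrix is broken down again by proteases from HSCs and macrophages.

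The total count was 10.8 M to 12.6 M in healthy libraries, 7.11 M and 6.52 M in chronic 72 h replicates 1 and 2, and 12.6 M and 13 M in replicates 3 and 4. Counts of 2 libraries of the same group differed by 14.4 to 79.4 times the variance of counting error alone, so no library was a copy of another. Values below are CPM, the counts of a gene scaled to a common library size by the trimmed mean of M values. The identity of the cells was checked against 14 defining markers of HSCs. All 14 had counts in each of the 8 libraries, at 3.29 CPM or more, 7 of them were lower in chronic 72 h than in healthy libraries, as described below, and 7 were not called. Among those not called, Lrat, which esterifies retinol, lay between 822 and 2630 CPM, Tcf21 between 980 and 1724 CPM and Cygb between 642 and 1271 CPM over both groups, with overlapping libraries. Some defining markers of other cells were at or near 0 in healthy libraries, with Ly6g of neutrophils and Flt3 of dendritic cells at 0 CPM in all 4 of them, Msln of mesothelium at most 0.337 CPM, and Krt7 and Epcam of cholangiocytes at most 0.674 CPM. Whole marker lists were not at 0. In healthy libraries they summed to 431 to 573 CPM for cholangiocytes, 253 to 418 CPM for mesothelium and portal fibroblasts, 1175 to 2021 CPM for sinusoidal endothelium, 1672 to 2283 CPM for Kupffer cells and 2018 to 13533 CPM for hepatocytes.

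Of 18758 genes tested with edgeR, 1479 (7.88%) were higher and 788 (4.20%) were lower in chronic 72 h than in healthy HSCs. A gene was called when its change exceeded 2-fold and its p, adjusted by the method of Benjamini and Hochberg, was under 0.05. The member counts of each list below are to be read beside these shares of 7.88% and 4.20%. Against chronic 24 h libraries the shares over all genes were 4.72% higher and 3.65% lower. A further 21169 genes had no count in the 8 libraries. Healthy and chronic 72 h libraries did not overlap in 3958 of the genes tested (21.1%). They did not overlap in 1282 of the genes called higher (86.7%) and 600 of those called lower (76.1%). Genes named below by rank of fold change were drawn only from called genes without overlap. For these genes the separation of the libraries was set by the selection. Genes that rose had a median absolute log2 fold change of 2.15, and genes that fell one of 1.55, while the median over all genes tested was 0.00. Among the genes that rose, 176 had at most 3 counts in each healthy library, and among those that fell, 55 had at most 3 in each chronic 72 h library. With library size alone as the scaling the median of all genes moved to 0.121 on the log2 scale, and 74.6% of the called genes were higher in place of 65.2%. In bulk RNA of sorted cells, fewer cells of a type and less RNA per cell cannot be told apart.

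**Figure D1:**
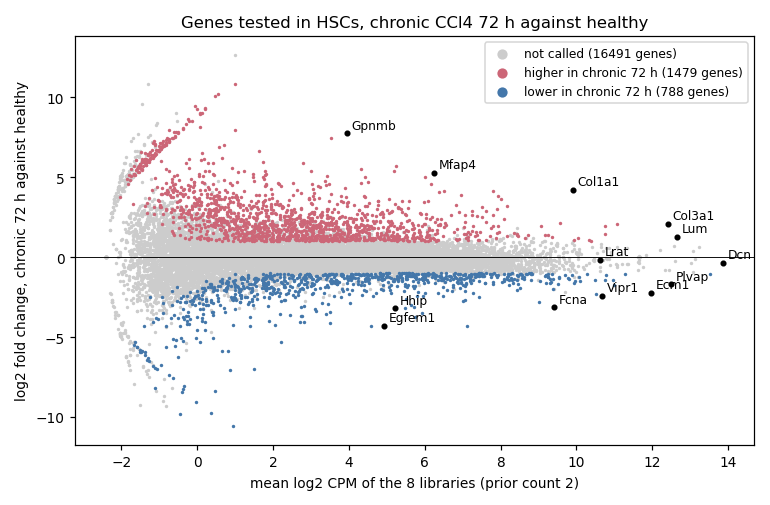
Log2 fold change of chronic 72 h against healthy HSCs (vertical axis) against the mean log2 CPM of the 8 libraries (horizontal axis) for each of 18758 genes tested, with called genes in colour. Collagen genes Col1a1 and Col3a1 lie above 0 at high levels, and Egfem1, Fcna and Vipr1 lie below 0. Dcn and Lrat lie close to 0.

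The list of HSC identity genes had the largest share of lower members (52.3%) of the 34 lists examined and the 2 lists of the study. Its members were chosen with earlier results of these data known, so this rank is a description and not independent evidence. Of 44 tested members of the identity list, 23 were lower, 3 were higher and 18 were not called, with a median log2 fold change of -1.26 beside 0.00 over all genes. The summed level of the list was 65593 to 83600 CPM in healthy libraries and 36371 to 38650 CPM in chronic 72 h libraries. The member with the lowest fold change was Egfem1 (ENSMUSG00000063600, GRCm38 chr3:29082023-29691209), with 150, 134, 124 and 135 CPM in healthy and 7.87, 9.71, 5.68 and 4.54 CPM in chronic 72 h libraries. All 4 chronic libraries lay far under all 4 healthy ones, at a log2 fold change of -4.30 ± 0.28 (SE) and an adjusted p of 5.25e-10 in edgeR.

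Secreted and surface proteins of quiescent HSCs were among the genes that fell. Reln, the secreted glycoprotein reelin that marks HSCs among liver mesenchyme, had 2802, 2898, 2864 and 1909 CPM in healthy and 1560, 1229, 1408 and 728 CPM in chronic 72 h libraries. Its groups did not overlap, although the lowest healthy library and the highest chronic library were close. Vipr1, a receptor for vasoactive intestinal peptide, had 3729, 4187, 4222 and 3584 CPM in healthy against 950, 758, 895 and 339 CPM in chronic 72 h libraries, with replicate 4 the lowest. Colec11, a circulating lectin of the complement system, went from a mean of 3290 ± 463 (SD, n = 4) to 1228 ± 98.7 CPM (SD, n = 4), and Rgs5, a regulator of G protein signalling in pericytes, from 3253 ± 247 to 662 ± 131 CPM. Hgf, the growth factor that HSCs send to hepatocytes, fell from 1169 ± 88.5 to 484 ± 79.3 CPM. Lhx2, a transcription factor that holds HSCs in quiescence, fell from 604 ± 80.9 to 289 ± 38.7 CPM. Without chronic replicate 4 the difference of Reln was -0.90 on the log2 scale, and without healthy replicate 3 that of Lhx2 was -0.99, both under the 2-fold limit. Lhx2 was at that limit without chronic replicate 4. Ngfr, Gfap, Bmp5, Bmp10, Plvap, Pcsk6, Ntm, Mapt and Syp fell too, with log2 fold changes from -3.76 for Mapt to -1.24 for Gfap.

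Several of these levels were above those at 24 h after the last injection. Of the 44 members, 11 were higher and 3 lower in chronic 72 h than in chronic 24 h libraries, where 4.72% of all genes were higher and 3.65% lower. Angptl6, a secreted angiopoietin-like factor, had 1496, 1271, 1756 and 1048 CPM in healthy and 243, 230, 171 and 147 CPM in chronic 72 h libraries, beside a mean of 35.6 ± 10.7 CPM (SD, n = 4) in chronic 24 h libraries. It was lower than in healthy (log2 fold change -2.82 ± 0.35, adjusted p 4.47e-06) and higher than in chronic 24 h HSCs (2.47 ± 0.35, adjusted p 3.54e-05). Gfap, an intermediate filament protein, followed the same order with means of 51.6, 21.9 and 5.88 CPM in healthy, chronic 72 h and chronic 24 h libraries, and Colec11 with 3290, 1228 and 430 CPM. Nes, another intermediate filament gene, did not, since its mean of 67.0 CPM at 72 h was under both 210 CPM in healthy and 307 CPM in chronic 24 h libraries.

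Ecm1, the extracellular matrix protein that holds latent TGF-β inactive in the liver, fell at a high level. Its level was 9714, 6587, 6785 and 13746 CPM in healthy and 1783, 3465, 1162 and 1514 CPM in chronic 72 h libraries, so that the groups did not overlap although both spread widely (log2 fold change -2.22 ± 0.32, adjusted p 2.93e-05). Its promoter window is shown because the gene was among the highest in CPM of those that fell, and because the window holds letters of both a TATA box and an AP-1 site. The window of 300 bases (250 before to 50 after the start, from RefSeq on GRCm38.p6) lies at chr3:95739520-95739819 on the minus strand. The letters TATAAA begin 27 bases and TGANTCA, the letters of an AP-1 site, 64 bases before the start, both in capitals. Windows were found for 11687 of 18753 symbols tested, and among these TATAAA was present in 9.61% and TGANTCA in 6.61% on either strand.
Ecm1: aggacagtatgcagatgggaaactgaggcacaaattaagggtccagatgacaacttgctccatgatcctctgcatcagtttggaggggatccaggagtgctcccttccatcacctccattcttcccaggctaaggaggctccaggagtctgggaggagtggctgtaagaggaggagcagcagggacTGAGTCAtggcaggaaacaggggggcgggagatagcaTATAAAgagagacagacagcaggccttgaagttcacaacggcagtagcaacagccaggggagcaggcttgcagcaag

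The 3 members of the identity list that rose were Wt1, Ncam1 and Alcam. Wt1, a transcription factor of the mesothelium and of HSC precursors, had 4.62, 6.34, 2.86 and 2.60 CPM in healthy and 84.9, 87.6, 130 and 99.7 CPM in chronic 72 h libraries (log2 fold change 4.62 ± 0.32, adjusted p 1.27e-09). Alcam, an adhesion molecule, had 90.6, 85.7, 66.6 and 50 CPM against 575, 462, 586 and 507 CPM. Each of the 4 chronic libraries was several-fold above each healthy library in both genes. Alcam was also higher than in chronic 24 h libraries, which had a mean of 217 ± 31.3 CPM (SD, n = 4; adjusted p 3.15e-05). Ncam1 rose from 14.3 ± 6.43 to 122 ± 42.4 CPM.

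Of 35 tested genes of retinoid storage and metabolism, 5 were higher (14.3%, beside 7.88% of all genes) and 1 lower (2.86%, beside 4.20%), with a median log2 fold change of 0.43. The storage gene Lrat had a mean of 1794 ± 785 CPM in healthy and 1578 ± 491 CPM in chronic 72 h libraries (SD, n = 4) and was not called. Cyp26a1, which clears retinoic acid, had 0, 0.293, 0.169 and 0.607 CPM in healthy and 4.93, 3.14, 6.23 and 2.51 CPM in chronic 72 h libraries. All 4 chronic libraries were above all healthy ones, and above the mean of 0.0800 CPM in chronic 24 h libraries (adjusted p 0.00347), which was 0 without chronic 24 h replicate 4. The call of Cyp26a1 against chronic 24 h libraries was lost in the libraries of higher depth alone (log2 fold change 4.67, adjusted p 0.0865). Aldh1a2, Dhrs9, Dhrs3 and Aldh1a3, enzymes that interconvert retinol, retinal and retinoic acid, also rose. Aldh1a2 had no count in any healthy library or in chronic replicate 3, and a mean of 0.837 CPM at 72 h. The call of Dhrs9 was lost without any single one of chronic replicates 2 and 3 and healthy replicates 1, 2 and 3, at log2 fold changes of 1.87 to 2.17. Bco1, which cleaves carotene to retinal, was the member that fell, from 159 ± 16.0 to 54.6 ± 7.63 CPM. Hepatocyte transcripts, some of which encode retinoid enzymes, moved as described under the cell markers, and their part in these values was not tested.

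**Figure D2:**
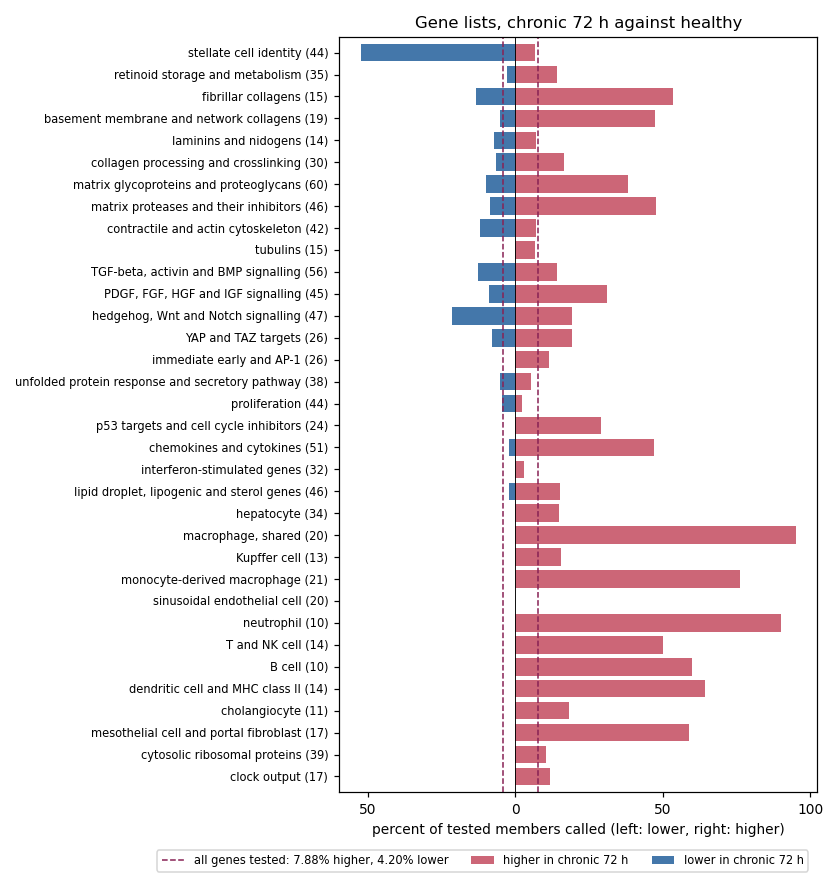
Percent of tested members called lower (left bars) and higher (right bars) in chronic 72 h than healthy HSCs, for 34 gene lists with the number of tested members in brackets. Dashed lines mark the 4.20% lower and 7.88% higher among all genes tested. The identity list has its longer bar on the left, and collagens, glycoproteins, proteases, chemokines and immune markers have theirs on the right.

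Fibrillar collagen was above healthy levels at 72 h. Of 15 tested genes of fibrillar and fibril-associated collagens, 8 were higher and 2 lower, with a median log2 fold change of 1.54, and the summed level was 4805 to 6201 CPM in healthy and 16324 to 27207 CPM in chronic 72 h libraries. Col1a1 (ENSMUSG00000001506, GRCm38 chr11:94936224-94953042), the α1 chain of type I collagen, had 187, 282, 304 and 148 CPM in healthy and 4676, 2928, 5299 and 4008 CPM in chronic 72 h libraries. The lowest chronic library was many times above the highest healthy library (log2 fold change 4.20 ± 0.38, adjusted p 8.89e-08). Col3a1 (GRCm38 chr1:45311538-45349706), which forms mixed fibrils with type I collagen, had 2677, 2744, 2619 and 2579 CPM against 11470, 8986, 14876 and 10186 CPM, with a narrow spread in healthy libraries. Col1a2 rose from 1048 ± 139 to 4470 ± 1005 CPM.

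Against chronic 24 h HSCs these chains were not called. The means of Col1a1, Col3a1 and Col1a2 in chronic 24 h libraries were 5648, 9448 and 4707 CPM, and the log2 fold changes of chronic 72 h against them were -0.42 ± 0.34, 0.27 ± 0.24 and -0.07 ± 0.25. Col12a1, a fibril-associated collagen, rose over healthy libraries from 2.59 ± 0.998 to 34.2 ± 11.9 CPM and was lower than the 96.0 ± 49.7 CPM at 24 h. Col5a2 rose as well, while Col5a1 lay at 695 ± 116 and 605 ± 74.0 CPM and was not called. Col24a1 and Col5a3 were the members that fell, with log2 fold changes of -1.62 and -1.17, although the call of Col5a3 was lost without chronic replicate 2 or 4 or healthy replicate 1 or 3 (-1.13 to -0.99).

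Network, microfibril and basement membrane collagens were divided by chain. Of 19 tested, 9 were higher and 1 lower, with a median of 1.12. The 3 chains of type VI collagen, which forms beaded microfibrils around cells, rose together, with Col6a1 at 684 ± 137 and 1439 ± 271 CPM, Col6a2 at 426 ± 100 and 1033 ± 121 CPM and Col6a3 at 385 ± 85.6 and 1019 ± 397 CPM in healthy and chronic 72 h libraries. Without healthy replicate 4 the log2 fold change of Col6a1 was 0.95, under the 2-fold limit. Col15a1 had 1.18, 1.95, 3.20 and 1.21 CPM against 32.7, 32.3, 47.4 and 31.1 CPM, with chronic replicate 3 above the other chronic libraries, which were close to each other. It was lower than at 24 h (140 ± 26.9 CPM, adjusted p 0.00044). Col4a5 had 0, 1.27, 1.94 and 0.780 CPM in healthy and 38.5, 36.0, 104 and 61.3 CPM in chronic 72 h libraries, and Col28a1 had no count in any healthy library and a mean of 2.61 CPM at 72 h, at least 9.69-fold higher than 3 counts per library. Its chronic mean was 1.61 CPM without replicate 3. The main basement membrane chains did not follow. Col4a1 lay at 920 ± 139 and 889 ± 238 CPM and Col4a2 at 758 ± 97.7 and 755 ± 145 CPM in the 2 groups, both with overlapping libraries, and both were lower than the means of 3297 and 2013 CPM in chronic 24 h libraries. Col25a1 fell.

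Laminins and nidogens, the other basement membrane proteins, gave 1 higher (Lamb3) and 1 lower (Lama1) of 14 tested, with a median of -0.13. Lama1 had 134, 187, 180 and 57.6 CPM in healthy and 31.3, 23.9, 35.0 and 13.8 CPM in chronic 72 h libraries, without overlap.

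Enzymes that modify collagen did not rise as a class. Of 30 tested, 5 were higher (16.7%) and 2 lower (6.67%), with a median of -0.01. Against chronic 24 h libraries, where 3.65% of all genes were lower, 9 were lower and none was higher. The 3 lysyl oxidases Lox, Loxl1 and Loxl2, which crosslink collagen and elastin, were among the 5 that rose. Lox had 5.62, 7.90, 5.98 and 10.1 CPM in healthy and 52.9, 46.9, 112 and 103 CPM in chronic 72 h libraries, beside 631 ± 353 CPM (SD, n = 4) at 24 h. The chronic 72 h libraries were thus above all healthy libraries (adjusted p 1.52e-05) and below chronic 24 h ones (log2 fold change -3.00 ± 0.45, adjusted p 7.56e-05). Loxl1 went from 147 ± 50.4 to 419 ± 100 CPM with 532 ± 57.1 CPM at 24 h, and that difference between the chronic groups was not called. Plod2, a lysyl hydroxylase, lay at 24.3 ± 1.61 and 29.3 ± 7.38 CPM and was lower than the 82.7 ± 29.7 CPM at 24 h.

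Glycoproteins and proteoglycans of the matrix gave 23 higher and 6 lower of 60 tested, with a median of 0.74. Their summed level overlapped between the groups, at 51990 to 74706 CPM in healthy and 55790 to 73170 CPM in chronic 72 h libraries. Among elastic fibre genes, Mfap4 (GRCm38 chr11:61485431-61488900), a microfibril-associated protein, had 9.97, 10.6, 16.5 and 13.4 CPM in healthy and 381, 324, 479 and 778 CPM in chronic 72 h libraries. Every chronic library was above every healthy library (log2 fold change 5.28 ± 0.72, adjusted p 1.59e-05), and the level was also above the 121 ± 49.9 CPM of chronic 24 h libraries (adjusted p 0.0276). The latter call was lost without chronic 24 h replicate 1 or 3 or chronic 72 h replicate 4, at log2 fold changes of 1.70 to 1.88, and in the libraries of higher depth alone (2.34, adjusted p 0.112). Ltbp2, which binds to fibrillin microfibrils, rose from 6.14 ± 3.05 to 252 ± 109 CPM, and Eln, elastin itself, from 98.0 ± 26.5 to 285 ± 71.8 CPM. Ltbp4 and Efemp1, other elastic fibre genes, fell, from 1768 ± 345 to 574 ± 181 CPM and from 656 ± 84.2 to 316 ± 17.2 CPM. Efemp1 was at or under the 2-fold limit without chronic replicate 2 or healthy replicate 1, the latter at -0.97 on the log2 scale.

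Lum (lumican), a proteoglycan that binds collagen fibrils, had 4494, 3553, 3871 and 4900 CPM in healthy and 7786, 8427, 10972 and 13335 CPM in chronic 72 h libraries. Fmod (fibromodulin), a related proteoglycan, rose from 50.7 ± 36.5 to 352 ± 105 CPM, and Dpt (dermatopontin), a matrix protein, from 32.9 ± 5.92 to 494 ± 152 CPM. Dcn (decorin), another collagen-binding proteoglycan, was not called, at 20919, 20131, 7652 and 21763 CPM against 12413, 14647, 12912 and 14381 CPM. Healthy replicate 3 stood well below the other healthy libraries, and without it the healthy mean of Dcn was above every chronic library.

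A further set of matrix proteins was above healthy and below chronic 24 h levels. Thbs1, thrombospondin 1, which activates latent TGF-β, had 79.6, 114, 66.5 and 133 CPM in healthy and 781, 835, 1151 and 781 CPM in chronic 72 h libraries. Its mean at 24 h was 5691 ± 1381 CPM, and chronic 72 h lay between with adjusted p values of 7.29e-07 and 9.08e-06. Fbln2, a fibulin, had means of 4.58, 22.5 and 205 CPM in healthy, chronic 72 h and chronic 24 h libraries, and Vcan, versican, 2.20, 8.29 and 65.4 CPM. These genes, and Tnc, tenascin C of wound matrix, passed the test in both comparisons. Over the whole list, 13 members were lower and 7 higher in chronic 72 h than in chronic 24 h libraries. Cthrc1, a secreted protein of activated fibroblasts, had counts in only 1 healthy library (0.363 CPM) and 6, 5.14, 13.5 and 27.7 CPM in chronic 72 h libraries. Has1, a hyaluronan synthase, had 1.18, 0.488, 1.43 and 1.65 CPM against 41.5, 49.0, 42.4 and 68.5 CPM.

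**Figure D3:**
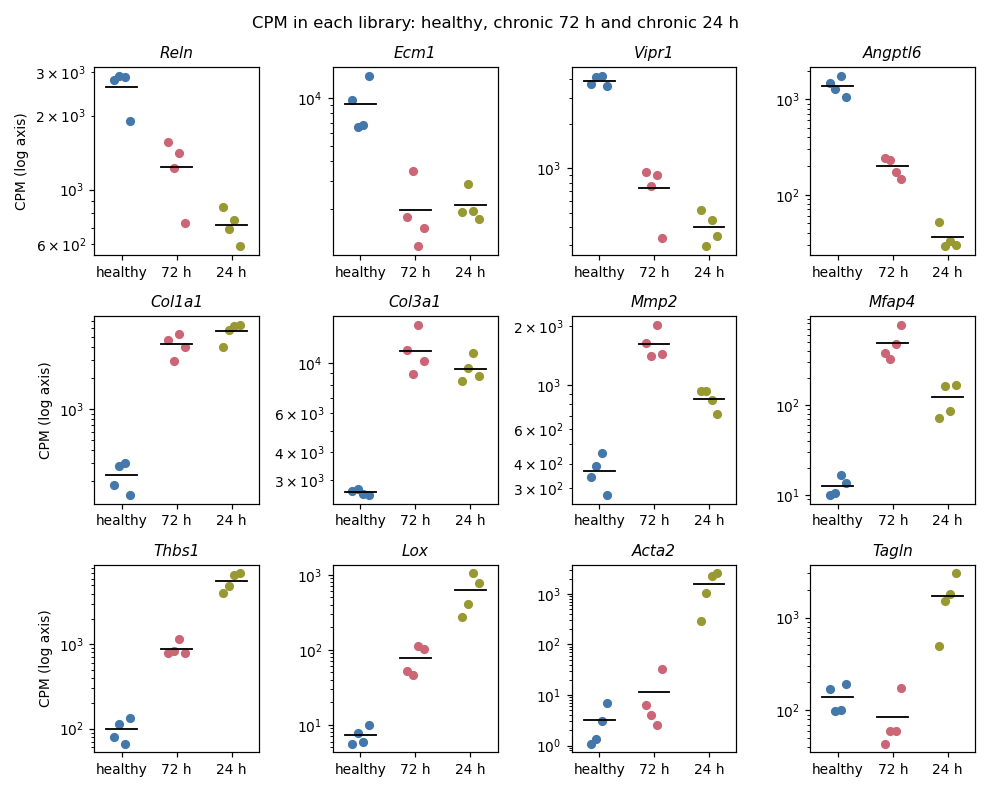
CPM (log axis) of 12 genes in each library of healthy, chronic 72 h and chronic 24 h HSCs, with a line at the mean of each group of 4. Reln, Ecm1, Vipr1 and Angptl6 are lower at 72 h than in healthy libraries, Col1a1 and Col3a1 are above healthy libraries in both chronic groups, Thbs1 and Lox lie between, and Acta2 and Tagln at 72 h overlap the healthy libraries.

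Proteases and protease inhibitors rose on both sides of the balance. Of 46 tested, 22 were higher and 4 lower, with a median of 1.25. Mmp2, the gelatinase of stromal cells, had 343, 390, 450 and 277 CPM in healthy and 1633, 1412, 2029 and 1431 CPM in chronic 72 h libraries, without overlap (log2 fold change 2.16 ± 0.23, adjusted p 8e-07). Its mean at 24 h was 855 ± 105 CPM. Ctsk, a collagen-degrading cathepsin, rose from 16.9 ± 4.02 to 139 ± 54.8 CPM, and Mmp13, an interstitial collagenase, had 0.635, 0.293, 0.674 and 0.693 CPM in healthy against 3.73, 5.43, 6.15 and 9.09 CPM in chronic 72 h libraries. Plat, the tissue plasminogen activator, had 19.2, 31.9, 27.1 and 12.9 CPM against 307, 323, 523 and 441 CPM, and its inhibitor Serpine2 had 4.08, 5.27, 8.09 and 4.94 CPM against 167, 148, 346 and 487 CPM. Both were many times higher in every chronic library. Reck, a membrane inhibitor of matrix metalloproteinases, fell from 237 ± 23.5 to 92.4 ± 17.9 CPM.

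Timp1, the inducible inhibitor of collagenases, was low at 72 h relative to 24 h. It had 0, 1.27, 1.26 and 0 CPM in healthy and 7.2, 8.43, 9.49 and 20 CPM in chronic 72 h libraries, beside 149 ± 18.5 CPM at 24 h. It was higher than in healthy (adjusted p 0.00485) and lower than in chronic 24 h libraries (log2 fold change -3.71 ± 0.87, adjusted p 0.0049), although in the libraries of higher depth alone the latter call was lost (-3.30, adjusted p 0.11). Plau and Plaur, the urokinase activator and its receptor, had means of 2.26 and 2.36 CPM in healthy, 11.5 and 11.8 CPM at 72 h, and 60.3 and 77.3 CPM at 24 h. Timp2 lay at 1442 ± 132 and 2149 ± 484 CPM, under the 2-fold limit. Mmp12, Mmp9, Mmp8, Adam8 and Ctss, which rose too, are known from macrophages or neutrophils, whose markers rose in the same libraries, and the part of those cells in the protease values was not tested.

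The contractile genes that define the myofibroblast were not above healthy levels as a class. Of 42 tested members of the contractile and actin list, 3 were higher (7.14%) and 5 lower (11.9%) than in healthy libraries, with a median of -0.44. Against chronic 24 h libraries 30 were lower and 1 higher, with a median of -1.28, where 3.65% of all genes were lower and 4.72% higher. The summed level was 11516 to 12795 CPM in healthy, 7508 to 9322 CPM in chronic 72 h and 13327 to 29268 CPM in chronic 24 h libraries. Acta2 (ENSMUSG00000035783, GRCm38 chr19:34241090-34255590), the smooth muscle α-actin used to mark activated HSCs, had 1.09, 1.37, 3.12 and 6.93 CPM in healthy and 6.27, 4.00, 2.49 and 32.0 CPM in chronic 72 h libraries. Chronic replicate 4 stood above the rest, the other 3 chronic libraries overlapped the healthy ones, and without replicate 4 the chronic mean was 4.25 CPM in place of 11.2 CPM. The log2 fold change of 1.85 ± 0.75 did not pass the test (adjusted p 0.0848). It did pass without healthy replicate 4 (2.59, adjusted p 0.0285), without chronic replicate 3 (2.21, adjusted p 0.0412), with DESeq2 (1.83, adjusted p 0.0305), with depth as a term (2.48, adjusted p 0.0162) and in the libraries of higher depth alone (2.49, adjusted p 0.0418), so the call of Acta2 against healthy libraries depended on these choices. The healthy mean was 1.86 CPM without replicate 4 in place of 3.13 CPM. At 24 h the mean was 1545 ± 1062 CPM, and the level at 72 h was lower by a log2 fold change of -7.09 ± 0.89 (adjusted p 1.2e-05).

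Tagln, an actin-bundling protein of smooth muscle, had 168, 97.2, 99.9 and 190 CPM in healthy and 43.7, 59.3, 60.3 and 176 CPM in chronic 72 h libraries, with chronic replicate 4 inside the healthy range and the other 3 below it. It was not called, and without chronic replicate 4 it was lower (log2 fold change -1.35, adjusted p 0.0483). Its mean at 24 h was 1707 ± 1037 CPM. Actn4, Flna and Myh9, which crosslink or pull on actin filaments, fell below healthy levels, from 2872 ± 353 to 1043 ± 249 CPM, from 541 ± 92.3 to 205 ± 57.9 CPM and from 474 ± 112 to 234 ± 90.9 CPM. Smtn and Itga1 fell as well. The members that rose were the integrin chains Itga11 and Itga8, which bind collagen and the matrix protein nephronectin, and Csrp2. Single libraries decided 3 of these calls. Myh9 lost its call without chronic replicate 2 or 4 or healthy replicate 2 or 3 (log2 fold change -0.99 to -0.78), Itga8 without chronic replicate 3 or healthy replicate 1 or 2 (0.87 to 1.31), and Csrp2 without chronic replicate 2 or 4 or healthy replicate 3 or 4 (0.97 to 1.02). Tubulin genes gave 1 higher (Tuba1c) and none lower of 15 tested, and 6 of them were lower than at 24 h.

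Promoter windows of contractile genes are shown because the list moved together between 24 h and 72 h. The CArG box, the binding motif of serum response factor, was present on either strand in 6 of 37 contractile genes with a window (16.2%) and in 1.52% of all genes tested with a window. The letters GGAATG, a core of TEAD binding sites, were present in 15 of the 37 (40.5%) and in 14.9%. The windows below lie on GRCm38.p6 at chr19:34255324-34255623 (Acta2, minus strand), chr2:156775214-156775513 (Myl9, plus strand) and chr10:79988350-79988649 (Cnn2, plus strand). Capitals mark GGAATG 146 bases before the start of Acta2, a CArG box 161 bases before that of Myl9, and in Cnn2 a CArG box and CCAAT, 56 and 30 bases before the start. The strict CArG letters were not in the window of Acta2. These matches are a description of letters. All windows printed here were chosen after the values and the letters had been seen.
Acta2: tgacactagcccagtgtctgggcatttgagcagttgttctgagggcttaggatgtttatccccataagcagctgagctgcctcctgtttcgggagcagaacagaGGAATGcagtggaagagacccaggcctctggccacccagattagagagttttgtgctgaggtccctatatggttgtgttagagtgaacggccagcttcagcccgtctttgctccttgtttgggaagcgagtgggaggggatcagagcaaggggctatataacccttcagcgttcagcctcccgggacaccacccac
Myl9: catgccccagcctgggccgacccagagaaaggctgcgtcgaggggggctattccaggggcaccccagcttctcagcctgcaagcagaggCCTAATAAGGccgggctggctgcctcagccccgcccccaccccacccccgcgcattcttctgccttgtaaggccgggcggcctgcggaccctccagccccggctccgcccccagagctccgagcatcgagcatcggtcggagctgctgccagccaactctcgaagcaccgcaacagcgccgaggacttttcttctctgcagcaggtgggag
Cnn2: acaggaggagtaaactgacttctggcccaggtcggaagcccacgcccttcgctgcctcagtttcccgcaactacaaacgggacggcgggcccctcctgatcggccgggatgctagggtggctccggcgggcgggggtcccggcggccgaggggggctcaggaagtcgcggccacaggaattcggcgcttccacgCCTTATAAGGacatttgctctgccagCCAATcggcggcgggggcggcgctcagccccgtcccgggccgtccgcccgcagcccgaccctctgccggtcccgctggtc
Myl9, a myosin regulatory light chain, had 83.7, 174, 77.1 and 115 CPM in healthy and 82.1, 29.6, 30.0 and 52.4 CPM in chronic 72 h libraries, beside 288 ± 174 CPM at 24 h. Cnn2, a calponin, had 175, 242, 271 and 280 CPM against 118, 113, 96.3 and 193 CPM, beside 565 ± 225 CPM. In both genes the chronic 72 h libraries overlapped the healthy ones, neither was called against healthy, and both were lower than at 24 h (adjusted p 0.00161 and 2.14e-05). Against healthy libraries Cnn2 passed the limits without chronic replicate 4 (-1.15) or healthy replicate 1 (-1.02), and Myl9 without chronic replicate 1 (-1.59) or in the libraries of higher depth alone (-1.41).

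Ligands and receptors changed gene by gene. In the list of TGF-β, activin and BMP signalling 8 of 56 were higher and 7 lower, with a median of 0.07. Tgfb2 and Tgfb3 rose, from 5.74 ± 2.25 to 24.1 ± 6.11 CPM and from 37.2 ± 7.64 to 171 ± 57.1 CPM, while Tgfb1 lay at 157 ± 55.8 and 83.4 ± 16.3 CPM and was not called. Tgfb1 passed the limits as lower without healthy replicate 4 (log2 fold change -1.09), with depth as a term (-1.09) and in the libraries of higher depth alone (-1.13). Bmp4, Bmp5 and Bmp10 fell, Bmp4 from 197 ± 17.0 to 67.0 ± 11.4 CPM. Acvr1c, an activin and nodal receptor, had a mean of 9.11 CPM in healthy and 1.86 CPM in chronic 72 h libraries and no count in any chronic 24 h library.

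Among growth factors and their receptors 14 of 45 were higher and 4 lower, with a median of 0.64. Igf1 had 34.4, 37.2, 51.1 and 156 CPM in healthy and 248, 252, 490 and 300 CPM in chronic 72 h libraries. Healthy replicate 4 stood well above the other healthy libraries and still below all chronic ones (log2 fold change 2.21 ± 0.59, adjusted p 0.0104). Pdgfc, Vegfd, Vegfa and Bdnf also rose, Bdnf from 4.89 ± 1.70 to 50.6 ± 15.5 CPM. The receptors through which PDGF drives HSCs, Pdgfrb and Pdgfra, were not called, at 1052 ± 198 and 1132 ± 477 CPM and at 622 ± 137 and 611 ± 253 CPM in healthy and chronic 72 h libraries.

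In the hedgehog, Wnt and Notch list 9 of 47 were higher and 10 lower, with a median of 0.05. Dhh, the ligand desert hedgehog, had 41.3, 31.0, 36.7 and 38.4 CPM in healthy and 4.40, 4.86, 3.11 and 1.72 CPM in chronic 72 h libraries (log2 fold change -3.41 ± 0.33, adjusted p 2.27e-07). Hhip, which binds hedgehog ligands away, had 128, 118, 152 and 108 CPM against 20.5, 21.7, 9.73 and 3.29 CPM. Both were far lower in each chronic library. Ptch1, the hedgehog receptor, fell from 83.1 ± 6.84 to 35.3 ± 9.52 CPM, and Gli1, a transcription factor of the pathway, had 1.09, 0.878, 2.11 and 0 CPM in healthy against 5.87, 4.14, 11.1 and 4.23 CPM in chronic 72 h libraries and was higher. The call of Gli1 was lost without chronic replicate 3 or healthy replicate 1 or 2 (log2 fold change 2.24 to 2.66). Among Wnt genes, the ligands Wnt5a, Wnt5b and Wnt11 rose, Wnt5a from 8.42 ± 3.98 to 97.7 ± 37.2 CPM, and so did the secreted Dkk3, from 85.2 ± 14.5 to 690 ± 154 CPM. Rspo3, a Wnt enhancer that acts on pericentral hepatocytes, fell from 568 ± 44.4 to 259 ± 62.1 CPM. Notch1, Notch4, Dll4 and Jag1 fell, which are known from endothelium as well as from HSCs. Markers of sinusoidal endothelium gave 0 higher and 0 lower of 20 with edgeR. Their median log2 fold change was -0.52, with 4 of the 20 above 0. Their summed level was 1175 to 2021 CPM in healthy and 761 to 1289 CPM in chronic 72 h libraries, with means of 1622 and 1032 CPM. The part of endothelial RNA in the Notch values was not tested.

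Among the stress and growth lists, targets of YAP and TAZ, which sense stiffness, gave 5 higher (19.2%, beside 7.88% of all genes) and 2 lower of 26 (median -0.37) and 6 lower than at 24 h. The targets used most often, Ccn2 and Ccn1, lay at 348 ± 203 and 2855 ± 1047 CPM in healthy and at 365 ± 301 and 2137 ± 609 CPM in chronic 72 h libraries and were not called, and both were lower than the 3268 and 6274 CPM at 24 h. The chronic 72 h mean of Ccn2 was 232 CPM without replicate 4, and its call against chronic 24 h libraries was lost in the libraries of higher depth alone (log2 fold change -3.46, adjusted p 0.0808). The unfolded protein response and secretory pathway gave 2 higher and 2 lower of 38 (5.26% each), near the shares of all genes. In that list 12 were lower than at 24 h, where 3.65% of all genes were lower. Hspa5, its main chaperone, lay at 1523 ± 532, 1157 ± 134 and 2657 ± 851 CPM in healthy, chronic 72 h and chronic 24 h libraries. Immediate early genes gave 3 higher (11.5%) and none lower of 26, and interferon-stimulated genes 1 higher (3.12%) and none lower of 32. Proliferation genes gave 1 higher (2.27%) and 2 lower (4.55%) of 44. These shares were near or under the 7.88% higher and 4.20% lower of all genes. Against chronic 24 h libraries 8 of the 44 proliferation genes were higher and 5 lower, with a median of 0.78. Among all genes 4.72% were higher and 3.65% lower in that comparison. Ccnd2, cyclin D2, a proliferation gene that fell below healthy levels, had 704, 839, 729 and 649 CPM in healthy against 204, 152, 204 and 189 CPM in chronic 72 h libraries. All 4 chronic libraries were far below every healthy one. Targets of p53 and cell cycle inhibitors gave 7 higher (29.2%) and none lower of 24, among them Cdkn1c, a cyclin-dependent kinase inhibitor, from 38.3 ± 10.4 to 95.9 ± 8.96 CPM.

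Lipid genes gave 7 higher and 1 lower of 46, with a median of 0.23. Scd1, the stearoyl-CoA desaturase that makes monounsaturated fatty acids, had 17.9, 34.4, 67.9 and 41.2 CPM in healthy and 336, 356, 633 and 216 CPM in chronic 72 h libraries. It was higher in each chronic library than in any healthy one (log2 fold change 3.25 ± 0.50, adjusted p 5.91e-05), and higher than the 62.8 ± 15.7 CPM of chronic 24 h libraries (adjusted p 0.000669). In the libraries of higher depth alone the latter call of Scd1 was lost (log2 fold change 2.54, adjusted p 0.0516). Fasn lay at 80.8 ± 20.6 and 92.0 ± 44.5 CPM and Plin2, a coat protein of lipid droplets, at 267 ± 28.5 and 196 ± 42.3 CPM, and neither was called. Mgll, a monoglyceride lipase, fell. Scd1 is also a hepatocyte gene, and the part of hepatocyte RNA was not tested.

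Chemokines and cytokines gave 24 higher and 1 lower of 51, with a median of 1.70. Il6 had 4.71, 3.80, 2.02 and 5.46 CPM in healthy and 9.47, 11.3, 12.9 and 17.7 CPM in chronic 72 h libraries, without overlap (log2 fold change 1.68 ± 0.42, adjusted p 0.00625). Tnf had 1.72, 1.27, 0.843 and 7.54 CPM against 24.0, 49.0, 10.6 and 77.6 CPM, and Il1b 11.2, 5.07, 17.4 and 34.1 CPM against 134, 221, 54.6 and 146 CPM. In both, chronic replicate 3 was the lowest of its group and healthy replicate 4 the highest of the healthy libraries. Ccl2, the monocyte attractant, had 29.6, 19.1, 86.6 and 228 CPM in healthy and 249, 224, 153 and 316 CPM in chronic 72 h libraries and did not pass the test (adjusted p 0.222), but did so without healthy replicate 4 (log2 fold change 2.38, adjusted p 0.0385). Cxcl12, the stromal chemokine, lay at 7678 ± 1122 and 9903 ± 876 CPM, was not called against healthy and was higher than the 3667 ± 1070 CPM at 24 h. The member that fell was Tnfrsf11b, osteoprotegerin, from 1036 ± 198 to 399 ± 59.2 CPM.

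Markers of immune cells rose in the same libraries as the chemokines, and their part in those values was not tested. Of the markers shared by macrophages 19 of 20 were higher (median 2.35), of those of monocyte-derived macrophages 16 of 21 (median 2.95), of neutrophil markers 9 of 10, of T and NK cell markers 7 of 14, of B cell markers 6 of 10 and of dendritic cell and MHC class II genes 9 of 14, with none lower in any of these lists. Shared macrophage markers summed to 179 to 646 CPM in healthy and 1395 to 3757 CPM in chronic 72 h libraries, and monocyte-derived markers to 831 to 891 and 1610 to 3134 CPM. Neutrophil markers summed to 0.843 to 2.18 and 23.1 to 61.7 CPM, T and NK cell markers to 3.99 to 8.93 and 10.1 to 60.7 CPM, B cell markers to 16.6 to 63.8 and 101 to 275 CPM, and dendritic cell and MHC class II genes to 111 to 180 and 275 to 1379 CPM. No healthy library reached the lowest chronic library in any of the 6 lists. Chronic replicates 1 and 2, of lower depth, had T and NK cell sums of 48.8 and 60.7 CPM, against 10.1 and 18.2 CPM in replicates 3 and 4. B cell sums were 250 and 275 against 101 and 113 CPM, and dendritic cell and MHC class II sums 939 and 1379 against 275 and 501 CPM. Monocyte-derived sums went the other way, and shared macrophage and neutrophil sums did not split so. The part of depth in these sums was not tested.

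Adgre1, the F4/80 antigen of macrophages, had 2.27, 0.390, 1.85 and 3.55 CPM in healthy and 10.9, 20, 10.4 and 16.1 CPM in chronic 72 h libraries. Cd68, a lysosomal protein of macrophages, had 5.26, 6.24, 11.7 and 12.1 CPM against 40.1, 35.9, 11.6 and 85.9 CPM, and there chronic replicate 3 lay inside the healthy range. Trem2, a lipid receptor of scar-associated macrophages, had counts in only 1 healthy library (0.253 CPM, 3 counts) and 10.4, 32.7, 11.8 and 22.0 CPM in chronic 72 h libraries. Lyz2 had 44.0, 24.6, 55.8 and 113 CPM against 934, 1276, 560 and 1342 CPM, and reads of Lyz1 and Lyz2 may be shared. Of 13 tested markers of Kupffer cells, the resident macrophages, 2 were higher (15.4%, beside 7.88% of all genes) and none lower, all 13 had a fold change above 0 with a median of 0.68, and their summed level did not overlap, at 1672 to 2283 CPM in healthy and 2454 to 3034 CPM in chronic 72 h libraries. The defining Clec4f, Vsig4 and Timd4 overlapped between the groups and were not called. Clec4f had 80.7, 49.0, 134 and 217 CPM in healthy and 225, 365, 102 and 76.5 CPM in chronic 72 h libraries. Of the 2 Kupffer markers that were higher, Marco had no count in any healthy library and 7.87, 8.00, 1.71 and 1.57 CPM at 72 h, and the other was Cd207.

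Gpnmb, a membrane glycoprotein of lipid-laden macrophages that mesenchymal cells can also express, had the highest fold change among genes that rose without overlap of libraries and averaged 3 or more on the log2 CPM scale. It had 0, 1.46, 1.60 and 1.91 CPM in healthy and 169, 197, 149 and 571 CPM in chronic 72 h libraries (log2 fold change 7.75 ± 1.00, adjusted p 9.69e-06), with chronic replicate 4 the highest. Its window (GRCm38.p6 chr6:49036268-49036567, plus strand) is shown because TGANTCA, found in 12.6% of the genes that rose and had a window and in 7.5% of those that fell, occurs in it in capitals, beginning 8 bases after the start.
Gpnmb: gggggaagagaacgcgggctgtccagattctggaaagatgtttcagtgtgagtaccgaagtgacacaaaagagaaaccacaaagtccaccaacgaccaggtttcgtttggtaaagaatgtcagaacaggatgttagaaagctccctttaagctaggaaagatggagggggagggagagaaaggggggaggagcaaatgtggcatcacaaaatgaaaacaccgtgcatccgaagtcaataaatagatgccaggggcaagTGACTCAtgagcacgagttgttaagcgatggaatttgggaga

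Hepatocyte transcripts gave 5 higher (14.7%, beside 7.88% of all genes) and none lower of 34, with a median of 1.05. Their summed level was 2018 to 13533 CPM in healthy, 7569 to 11409 CPM in chronic 72 h and 2041 to 7037 CPM in chronic 24 h libraries. Against chronic 24 h libraries 11 of the 34 were higher and none lower, with a median of 1.74. Among all genes 4.72% were higher in that comparison. The part of hepatocyte RNA in genes higher at 72 h than at 24 h was not tested. Alb, albumin, had 127, 227, 209 and 881 CPM against 705, 779, 585 and 1283 CPM and was not called, healthy replicate 4 being the library inside the chronic range. The 5 that rose were the pericentral genes Cyp2e1, Cyp1a2 and Cyp2c29, Rgn and Akr1c6. The call of Cyp1a2 was lost without chronic replicate 4 or healthy replicate 1 or 2 (log2 fold change 2.04 to 2.40), and that of Cyp2c29 without chronic replicate 4 or healthy replicate 1, 2 or 4 (1.43 to 2.21). Cyp2e1, which activates CCl4, had 2.63, 13.3, 15.8 and 28.3 CPM in healthy, 56.1, 58.4, 75.4 and 155 CPM in chronic 72 h and a mean of 2.61 CPM in chronic 24 h libraries, or 1.53 CPM without chronic 24 h replicate 1. Markers of mesothelium and portal fibroblasts gave 10 higher and none lower of 17, with a median of 1.96 and a summed level of 253 to 418 and 1288 to 2115 CPM. Of their defining markers Msln was at or near 0 in all 8 libraries, Upk3b overlapped between the groups, and Thy1 had 0.453, 0.390, 1.35 and 1.21 CPM against 4.13, 2, 2.88 and 4.39 CPM. Wt1, Mfap4, Eln, Fbln2 and Col15a1 belong to this list and to results above, and the part of such cells in them was not tested. Cholangiocyte markers gave 2 higher of 11 (18.2%), cytosolic ribosomal protein genes 4 higher of 39 (10.3%, median 0.69) and clock output genes 2 higher of 17 (11.8%), with none lower. Among all genes tested 7.88% were higher, so the called shares of the ribosomal and clock lists were near that of all genes. Even so, 38 of the 39 ribosomal protein genes had a fold change above 0. Their summed level did not overlap, at 681 to 1107 CPM in healthy and 1212 to 2127 CPM in chronic 72 h libraries. Of the 17 clock output genes, 10 had a fold change above 0. The cause of the ribosomal shift was not tested.

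**Figure D4:**
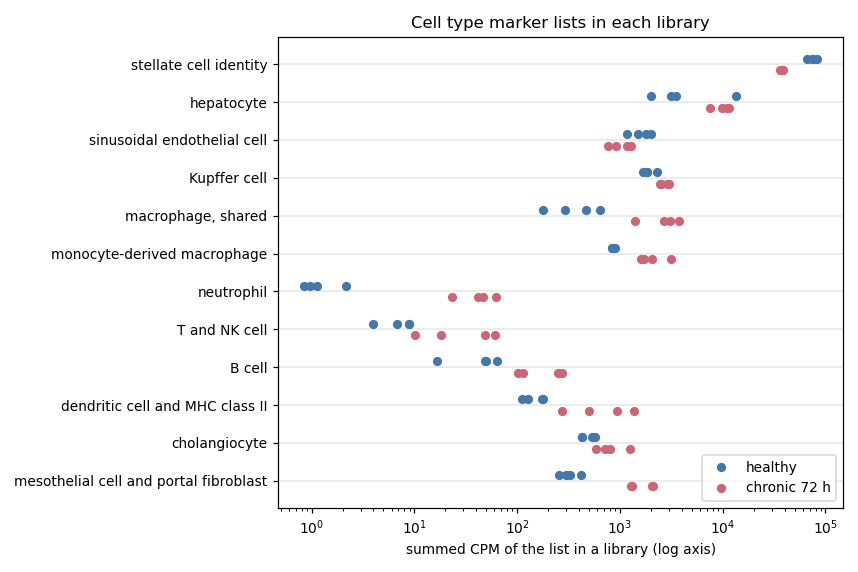
Summed CPM (log axis) of HSC identity genes and of marker lists of 11 other cell types in each healthy and each chronic 72 h library. Identity genes are lower in all 4 chronic libraries, neutrophil, macrophage and mesothelial lists are higher in all 4, and hepatocyte and endothelial lists overlap between the groups.

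The programs that the study itself defined were in part still raised. Of 172 tested genes of its fibrogenic program, 98 were higher than in healthy libraries and none lower, with a median log2 fold change of 1.82, and 139 were lower than in chronic 24 h libraries, with a median of -1.95. The summed level was 6822 to 8288 CPM in healthy, 16799 to 24667 CPM in chronic 72 h and 42680 to 71554 CPM in chronic 24 h libraries. Of 72 genes of its initiatory program, 33 were higher than healthy and none lower (median 1.10), and 48 were lower than in chronic 24 h libraries (median -2.02). The study chose the fibrogenic list on samples that include the healthy and chronic 24 h libraries, and the initiatory list on samples that include the healthy libraries, so neither is independent evidence of a direction.

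Regardless of lists, the genes with the smallest adjusted p on the higher side were Gpr39, Dkk3, Alcam, Hk2, Wt1, Plat, Scube1, Fblim1, Fndc5 and Pim1. Gpr39, a zinc-sensing receptor, had 13.1, 13.4, 15.8 and 13.4 CPM in healthy and 166, 143, 186 and 155 CPM in chronic 72 h libraries (log2 fold change 3.54 ± 0.19, adjusted p 3.69e-11), with almost no spread within either group. Scube1 (GRCm38 chr15:83604999-83725021), a secreted protein with EGF-like and CUB domains, had 9.88, 9.95, 19.9 and 7.11 CPM against 374, 326, 494 and 329 CPM, and its level was above the 159 ± 76.4 CPM of chronic 24 h libraries, a call that was lost when the 8 libraries of the 2 chronic groups were fitted alone (log2 fold change 1.26, adjusted p 0.0621). Fndc5, the precursor of irisin, rose from 4.09 ± 2.54 to 134 ± 39.2 CPM, with 45.6 ± 15.4 CPM at 24 h. Hk2, the glucose-phosphorylating hexokinase 2, rose from 3.35 ± 1.08 to 37.5 ± 7.97 CPM, and its level at 24 h was 75.1 ± 20.6 CPM. Fblim1, a filamin-binding adhesion protein, had means of 42.3, 171 and 493 CPM in healthy, chronic 72 h and chronic 24 h libraries.

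Among the highest fold changes were also Fhl2, a LIM protein, at 3.07 ± 0.482 and 139 ± 89.0 CPM, Ch25h, which makes 25-hydroxycholesterol, at 1.89 ± 0.529 and 63.9 ± 38.1 CPM, Nrep at 5.16 ± 3.81 (3.26 without healthy replicate 4) and 134 ± 87.6 CPM, and Mdk, the growth factor midkine, at 2.03 ± 0.835 and 56.0 ± 26.4 CPM. Ch25h was lower than the 312 ± 112 CPM at 24 h, and Mdk was higher than the 17.5 ± 6.75 CPM at 24 h. The latter call was lost without chronic 72 h replicate 4 (log2 fold change 1.36, adjusted p 0.0678) and in the libraries of higher depth alone (1.84, adjusted p 0.127). Tuba1c had 0.816, 0.683, 0.506 and 1.21 CPM in healthy and 152, 137, 112 and 171 CPM in chronic 72 h libraries. The near-identical Tuba1a and Tuba1b lay at 494 ± 25.2 and 434 ± 33.7 CPM in healthy and at 317 ± 52.0 and 232 ± 51.0 CPM in chronic 72 h libraries, and reads of these genes may have been divided between them in counting. Tuba1b passed the limits as lower without chronic replicate 1 (log2 fold change -1.04) and in the libraries of higher depth alone (-1.07, adjusted p 0.00561). At high levels the genes that rose included C4b of the complement system (69.6 ± 34.4 to 995 ± 384 CPM), Fgl2 (16.2 ± 6.82 to 380 ± 217 CPM), Serpina3g (20.5 ± 3.54 to 344 ± 80.7 CPM) and H2-Ab1 of MHC class II. Gpx3, a secreted glutathione peroxidase, had 66.4, 104, 118 and 61.9 CPM against 1077, 1103, 158 and 2062 CPM, and chronic replicate 3 was close to the healthy libraries.

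On the lower side the smallest adjusted p belonged to Egfem1, Epor, Ntm, Rgs7, Pcsk6, Nt5dc2, Dhh, Bcl2, Adcy5 and Ncald. Epor, the erythropoietin receptor, had 159, 136, 158 and 122 CPM in healthy and 21.5, 22.1, 15.6 and 12.8 CPM in chronic 72 h libraries (log2 fold change -3.00 ± 0.25, adjusted p 3.18e-08), and the groups were far apart. Bcl2, which protects from apoptosis, fell from 244 ± 62.5 to 63.1 ± 10.4 CPM and lay at 68.5 ± 6.94 CPM at 24 h. Adcy5, an adenylate cyclase, fell from 140 ± 31.5 to 30.2 ± 6.37 CPM. Rgs4 and Rgs7, regulators of G protein signalling, fell, Rgs4 from 416 ± 31.6 to 73.2 ± 15.9 CPM and Rgs7 from 36.8 ± 7.09 to 7.33 ± 2.36 CPM.

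Fcna, ficolin A, a lectin of the complement system, had 2531, 1765, 1839 and 2027 CPM in healthy and 292, 249, 223 and 156 CPM in chronic 72 h libraries, all 4 of which were far below the healthy ones. Nt5e, the ectonucleotidase that makes adenosine, fell from 351 ± 97.4 to 72.8 ± 20.7 CPM, and Itgb3, the integrin β3 chain, from 213 ± 27.3 to 40.2 ± 14.5 CPM. Itgb3 was also lower than at 24 h (96.2 ± 25.0 CPM). Cdh4, Ttyh1, Trp53i11, Sh2d3c and Nt5dc2 fell, with log2 fold changes of -4.11, -3.55, -2.66, -2.26 and -2.76. Hba-a1 and Hba-a2, near-identical α-globin genes of red cells, had means of 47.7 and 42.2 CPM in healthy and 4.33 and 4.31 CPM in chronic 72 h libraries. The calls of both were lost without chronic replicate 1, 2 or 3 or healthy replicate 2 or 3, at log2 fold changes from -3.48 to -2.83, and their chronic means were 2.06 and 2.12 CPM without replicate 4.

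Some predicted loci spread widely in healthy libraries. Gm10800, which shares sequence with Gm10801, had 723, 1716, 382 and 166 CPM in healthy and 50, 23.9, 38.4 and 35.9 CPM in chronic 72 h libraries, so the healthy libraries differed several-fold among themselves, and without healthy replicate 2 their mean was 424 CPM in place of 747 CPM. Gm42679 lay at 150 ± 74.5 and 16.8 ± 6.71 CPM in healthy and chronic 72 h libraries and fell. Loci of the TEC class, which GENCODE lists as still awaiting experimental proof and which include many single-exon and intronic transcripts, gave 8 higher and 125 lower of 854 tested, with a median of -1.13, while protein-coding genes gave 1253 higher and 526 lower of 14078, with a median of 0.03. Antisense genes gave 18 higher and 43 lower of 658, and processed pseudogenes 123 higher and 19 lower of 1768. Between 18807 and 26162 genes had a count in a healthy library, both ends belonging to that group, and between 21343 and 22477 in a chronic 72 h library. The part of library quality in these classes was not tested.

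Against chronic 24 h HSCs, 886 genes (4.72%) were higher and 684 (3.65%) lower at 72 h. The healthy comparison and this one share the 4 chronic 72 h libraries, so their values are given side by side and not as independent of each other.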

How the data were processed

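RNA-seq counts of 53379 genes in 27 libraries were used as deposited. According to the study's methods the authors trimmed 75 bp single-end reads, aligned them to GRCm38.p6 with STAR and assembled transcripts with StringTie, and per the labels of the processing notes the same tools are named. Tool versions, the strand setting and the way these whole-number counts were made are not given in the sources used here, so near-identical, overlapping and antisense genes are uncertain. Gene names and classes came from GENCODE M21 for 53274 identifiers.

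One fit was made with edgeR 4.0.16 over all 27 libraries and 7 groups, with a mean per group, scaling by the trimmed mean of M values, the tool's own filter on low counts, and robust quasi-likelihood tests in which 18758 genes entered. Adjusted p followed Benjamini and Hochberg. SD and n refer to 4 libraries. P-values set a difference against the spread within groups, which the fit estimated over all 27 libraries and in part shared across genes. On simulated counts for this comparison, 122 of 200 genes changed by 2 on the log2 scale were recovered, with 3 false calls. In that simulation as many genes rose as fell, and all others had the same mean in every group. The data had 1479 genes higher and 788 lower, so the recovery and false calls describe the simulated setting only. Deviations of healthy and chronic 72 h libraries of the same number had correlations of -0.021, -0.020, -0.038 and 0.126. Those of different numbers ranged from -0.136 to 0.139. The values gave no sign of pairing by number, but so few cannot exclude a shared day.

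Genes were named by 3 rules among called genes, as members of the lists, or where a count was small. At a mean log2 CPM of 3 or more, the rules took the 12 highest fold changes and the 10 smallest adjusted p in each direction. At 6 or more, they took the 12 highest fold changes of protein-coding genes in each direction. Both rules by fold change admitted only genes whose healthy and chronic 72 h libraries did not overlap. For genes named by them, the separation of the libraries was fixed by the selection. The members, the 34 lists and the 2 programs of the study were chosen with earlier results of these data known. The letters of the TATA box (TATAAA), of the CCAAT box, of TEAD sites (GGAATG) and of AP-1 sites (TGANTCA), and the CArG box, were searched on both strands, overlaps included, in RefSeq windows of GRCm38.p6. Alternatives were DESeq2 1.42.0, other scalings, filters, fold limits, depth terms, a replicate block, and leaving out each library. A few list members are not reported here.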

Additional observations from a re-analysis of the deposited data

Results flagged for a closer look

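In each group of 4 libraries, the gap between the highest or lowest library and its nearest neighbour was divided by the range of the group and compared with Dixon's 95% critical value. Of 460 groups examined 28 passed it, and chance flags about 1 in 20. Values are CPM, set against the lowest and highest of the other 3 libraries. Healthy replicate 4 was lowest for Col24a1 (13.3 against 23.4 to 23.9 CPM, ratio 0.966), Col5a1 (522 against 729 to 770 CPM, ratio 0.860), Colec11 (2597 against 3481 to 3542 CPM, ratio 0.943), Cygb (642 against 1035 to 1131 CPM, ratio 0.844), Gm42679 (40 against 173 to 206 CPM, ratio 0.895), Ngfr (178 against 241 to 256 CPM, ratio 0.834) and Reln (1909 against 2802 to 2898 CPM, ratio 0.919). It was highest for Bmp10 (463 against 299 to 314 CPM, ratio 0.886). Healthy replicate 3 was lowest for Dcn (7652 against 20131 to 21763 CPM, ratio 0.925). It was highest for Gpr39 (15.8 against 13.1 to 13.4 CPM, ratio 0.881), Ptch1 (93.3 against 78.9 to 81 CPM, ratio 0.837) and summed tubulins (1892 against 1755 to 1777 CPM, ratio 0.834). Healthy replicate 2 was lowest for Itgb3 (172 against 224 to 231 CPM, ratio 0.894) and Mmp13 (0.293 against 0.635 to 0.693 CPM, ratio 0.886). It was highest for Ncald (104 against 89.5 to 91.2 CPM, ratio 0.869). Healthy replicate 1 was lowest for Gpnmb (0 against 1.46 to 1.91 CPM, ratio 0.901) and Timp2 (1244 against 1493 to 1519 CPM, ratio 0.916). Chronic 72 h replicate 4 was lowest for Jag1 (23.4 against 38.6 to 42.3 CPM, ratio 0.845). It was highest for Ch25h (121 against 42 to 47.3 CPM, ratio 0.888), Pim1 (538 against 380 to 399 CPM, ratio 0.862) and Vegfd (25.8 against 14.1 to 14.7 CPM, ratio 0.940). Chronic 72 h replicate 3 was lowest for summed lipid droplet, lipogenic and sterol genes (13051 against 16738 to 17576 CPM, ratio 0.836). It was highest for Col15a1 (47.4 against 31.1 to 32.7 CPM, ratio 0.884) and Itga8 (1907 against 659 to 714 CPM, ratio 0.925). Chronic 72 h replicate 1 was lowest for Krt7 (0.267 against 1.01 to 1.18 CPM, ratio 0.884) and Pdgfc (7.6 against 9.79 to 10.1 CPM, ratio 0.886). Of the healthy libraries, only replicate 1 had a count of Cthrc1, at 0.363 CPM (ratio 1.000). Of the healthy libraries, only replicate 3 had a count of Trem2, at 0.253 CPM (ratio 1.000).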

How the results depend on the processing

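In place of 1479 genes higher and 788 lower, 1154 to 1757 and 534 to 1052 were called when each library was left out in turn. The lowest counts came without chronic 72 h replicate 4 and the highest without healthy replicate 4. Of the 1479 and 788 genes themselves, 1126 to 1371 and 492 to 727 were called again in these fits. DESeq2 gave 1689 and 894, DESeq2's size factors 1482 and 766, the 8 libraries alone 1096 and 610, no filter 1347 and 613, a minimum mean of 1 CPM 1378 and 725, library size alone 1728 and 588, depth as a term 1386 and 938, and the libraries of higher depth alone 1371 and 611. No healthy library was of low depth. A test against a 2-fold minimum called 561 and 132, and without a fold limit 1688 were lower. With a replicate block 1426 were higher and 793 lower; the correlations of same-numbered libraries gave no sign that the numbers pair them. Over 194 genes named, 1479 of 1552 fits without a library and 2021 of 2126 other fits kept the direction and the side of the limits. Direction turned for the following genes, none of which was called. With depth as a term the log2 fold change of Clec4f was -0.42, of Timd4 -0.42, of Col4a1 0.22 and of Col4a2 0.20, and in the libraries of higher depth alone these were -0.40, -0.69, 0.04 and 0.18, with Lrat at 0.10 and Pdgfra at 0.11. With library size alone Col4a1 was at 0.07, Col4a2 at 0.12 and Pdgfra at 0.10. Col4a2 was at 0.01 with the minimum mean of 1 CPM, 0.02 without a filter and 0.00 in the 8 libraries alone. Without single libraries Col4a1 ranged from -0.15 to 0.09, Col4a2 from -0.11 to 0.09, Ccn2 from -0.59 to 0.48, Pdgfra from -0.29 to 0.16, Lrat from -0.42 to 0.06, Fasn from -0.03 to 0.43, Pdgfrb from -0.16 to 0.29 and Tcf21 from -0.02 to 0.33. Against chronic 24 h HSCs, Col1a2 was at 0.04 with library size alone and from -0.18 to 0.09 without single libraries, and Loxl1 at 0.03 in the libraries of higher depth alone. Over 41 genes with values given against chronic 24 h HSCs, 318 of 328 fits without a library and 335 of 369 other fits kept the direction and the side of the limits, while 8 and 32 lost the call. The cause was not tested.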
